A study of Homo sapiens with 8 samples.

Results

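The response of Hep-3B cells to KLHL23 knockdown was set against that of Huh7 cells, gene by gene, as the Huh7 difference (shKLHL23 minus shLuc) minus the Hep-3B difference. This difference of differences was estimated from all 8 arrays of the series, and each of the 19775 genes measured was tested for it. Hep-3B and Huh7 are established human hepatoma lines, and gene expression was read on Affymetrix oligonucleotide arrays as log2 values. The 4 groups of 2 arrays each are Hep-3B-shLuc, Hep-3B-shKLHL23, Huh7-shLuc and Huh7-shKLHL23, with arrays numbered 1 and 3 in every group. All groups, controls included, grew in medium with 10% fetal bovine serum and received lentivirus (multiplicity of infection 2), with puromycin selection begun after 48 hours. The virus carried a short hairpin RNA (an RNA that the cell processes to destroy a matching transcript) against KLHL23 in the shKLHL23 groups and against luciferase, a gene human cells lack, in the shLuc groups. The labels give the same name to the knockdown hairpin in both lines, so loss of KLHL23 and any action of the hairpin on other transcripts cannot be told apart. Nothing in them says that replicates are separate cultures, and the spread behind every p-value, which is that of these samples alone, may be technical.

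KLHL23 belongs to the Kelch-like family, proteins with a BTB domain and Kelch repeats. Several members of the family act as substrate adaptors of cullin 3 ubiquitin ligases, and so decide which proteins are marked for degradation. Hepatoma lines keep part of the hepatocyte programme, which includes secretion of plasma proteins, conjugation of drugs and alcohols, ammonia disposal by the urea cycle and conversion of cholesterol to bile acids. They keep it to different degrees, so the control level of a gene in each line is given below beside its response.

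KLHL23 itself read 7.81 and 7.84 in Hep-3B-shLuc, 7.21 and 6.15 in Hep-3B-shKLHL23, 7.89 and 7.87 in Huh7-shLuc and 5.78 and 5.88 in Huh7-shKLHL23 (log2, replicates 1 and 3). On this probe set, the 1 paired with KLHL23 alone, all knockdown arrays lay below all control arrays, with Hep-3B-shKLHL23 replicate 1 nearest to the controls. The fall was 2.05 in Huh7 (limma adjusted p = 0.0036), and the Hep-3B difference of -1.14 did not pass (limma adjusted p = 0.083). The difference between the lines was -0.91 ± 0.38 (SE, limma adjusted p = 0.316), and it was -1.44 without Hep-3B-shKLHL23 replicate 3, where it passed (limma adjusted p = 0.030), and -0.38 without Hep-3B-shKLHL23 replicate 1 (limma adjusted p = 0.245). KLHL23 was thus not depleted to the same level on all knockdown arrays, and the part of that in the results below was not tested.

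Replicate arrays correlated at 0.995 to 0.998 over all genes, and the SD of the difference between replicates was 0.157 and 0.171 in the control groups and 0.222 and 0.25 in the Hep-3B and Huh7 knockdown groups. All 10 hepatocyte and hepatoma markers, albumin and alpha-fetoprotein among them, were above the lower quartile of each of the 8 arrays, as were all 5 cholangiocyte markers. Markers of cell types not expected in these lines were not uniformly low. Above the lower quartile on all 8 arrays were 4 of 6 stellate cell and fibroblast markers (COL1A1, COL1A2, DCN and PDGFRB), 3 of 5 endothelial markers (PECAM1, TEK and VWF) and 4 of 5 blood and macrophage markers (CD14, CD163, CD3E and CSF1R), while LUM, CDH5, KDR and PTPRC were below it on all 8. An index of RNA integrity and labelling, the signal of the ACTB control probes at the 3' end minus that at the 5' end, moved with the comparison. It was 0.442 and 0.537 in Hep-3B-shLuc, 0.737 and 0.753 in Hep-3B-shKLHL23, 0.873 and 0.833 in Huh7-shLuc and 0.525 and 0.546 in Huh7-shKLHL23, so that it widened in 1 line and narrowed in the other. The same gap for GAPDH differed between the lines' responses by -0.091. The part of this in the results was not tested. These are bulk samples, in which fewer cells of a kind and less RNA per cell cannot be told apart.

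The responses of the lines differed for 249 of 19775 genes (1.26%) at a limma adjusted p under 0.05. In 88 of them the Huh7 response was the higher (0.445% of genes) and in 161 the lower (0.814%). The sizes of the called differences ran from 0.645 upwards on the log2 scale, beside a median SE of 0.16 over all genes. At an unadjusted p under 0.05 there were 2915. When all probe sets were tested as features of their own, 510 were called, 243 higher and 267 lower. Within the lines, 2666 genes (13.5%) were called in Huh7 and 137 (0.693%) in Hep-3B, from the same number of arrays. By biotype, 232 of the 249 genes were protein-coding, 12 were long non-coding RNAs and 5 were transcribed pseudogenes.

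A gene was said to respond in a line where its difference was at least 0.3 log2. By this rule 67 of the 249 genes had responses of opposite sign, 146 responded in Huh7 alone, 23 responded in Hep-3B alone and 13 responded in the same direction to unequal degrees. These classes describe estimates, and a response below 0.3 is not shown to be absent. They are set by the differences within each line, so counts of their members called in a line are no test. Of the 146 Huh7-limited genes, the 95% interval of the Hep-3B difference lay within 1 log2 of 0 for all 146 and within 0.5 for 120. Of the 23 Hep-3B-limited genes, the interval of the Huh7 difference lay within 1 for all 23 and within 0.5 for 14. The rule holds these differences under 0.3, and the median SE within a line was 0.113 over all genes. The interval counts are thus largely set by the rule and are no test either.

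**Figure D1:**
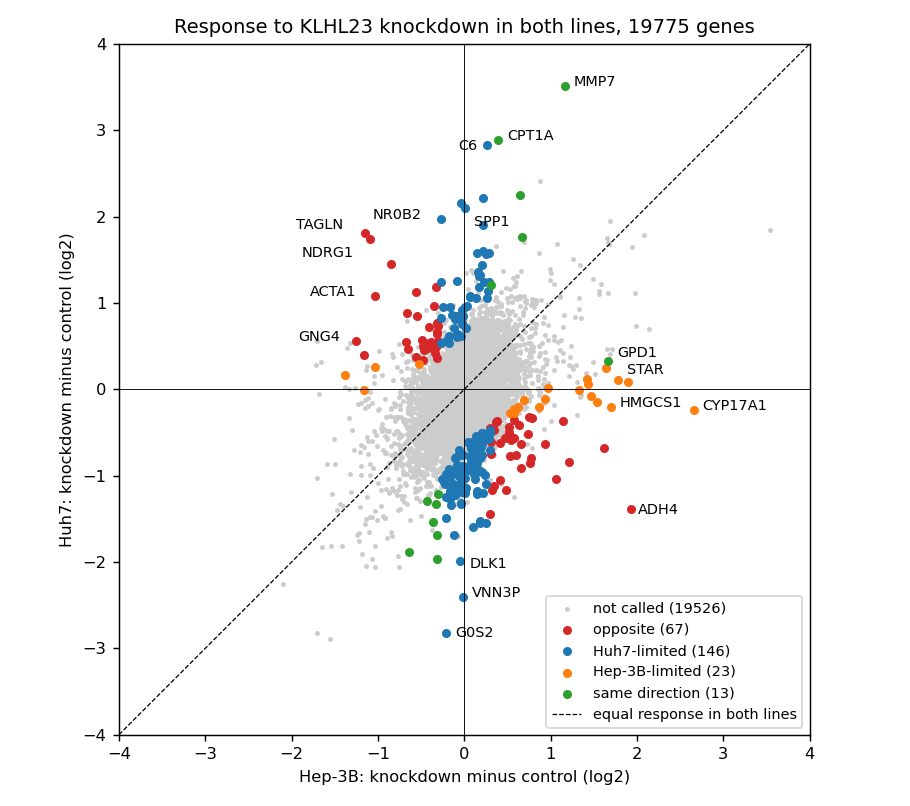
Knockdown minus control in Hep-3B (x axis, log2) against the same difference in Huh7 (y axis, log2) for all 19775 genes in grey and the 249 called genes coloured by response class. The called genes lie away from the diagonal of equal responses: 67 have opposite signs with at least 0.3 in each line, 146 lie within 0.3 of the vertical axis and 23 within 0.3 of the horizontal one.

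The number of calls rested on single arrays. It was 4 without Huh7-shLuc replicate 1, 7 without Huh7-shLuc replicate 3, 12 without Hep-3B-shLuc replicate 1, 30 without Hep-3B-shLuc replicate 3, 65 without Hep-3B-shKLHL23 replicate 3, 130 without Huh7-shKLHL23 replicate 1, 262 without Hep-3B-shKLHL23 replicate 1 and 521 without Huh7-shKLHL23 replicate 3. Each of the 249 differences kept its sign in all 8 of these fits, at 0.761 to 1.24 times its size. A call required a difference large beside the spread between replicates. The call itself therefore bounds how far 1 array can move the difference, and this is no test of the sizes. C6, CPT1A and NR0B2 were called in all 8 fits, and ACTA1 and DEFB1 in 7. Hep-3B-shKLHL23 replicate 3, the array of that group with less KLHL23, lay farther from the Hep-3B controls than replicate 1 for all 23 Hep-3B-limited genes, 62 of the 67 opposite ones, 13 of the 13 same-direction ones and 94 of the 146 Huh7-limited ones, beside 66.38% of all genes. The classes were defined with the Hep-3B difference that these arrays give, so these counts are no test.

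The choice of probe set also mattered. When the probe sets of each gene were averaged, in place of taking the brightest, 14 of the 69 called genes named here were no longer called, and among the 58 that could be tested without probe sets named _x_at and _s_at, 4 were no longer called and 3 changed sign. These values stand beside the genes below. Losses just past the threshold, at a limma adjusted p of 0.0504 to 0.062, came over all probe sets for DNAJB9, GPX2, IFITM2, KRT19 and TNFRSF10B, after further quantile normalization for LOC100505915, PLA1A and TNFRSF10B, and with array weights for NMRAL2P.

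Opposite responses with the higher change in Huh7 were seen for 32 genes. Their median difference was -0.47 in Hep-3B and 0.56 in Huh7. Rises in Huh7 were called for 31 and falls in Hep-3B for 4, beside 1137 and 31 of all 19775 genes. The class rule, which asks for a difference in both lines, largely sets these counts. TAGLN, NDRG1, KLRK1-AS1 and ACTA1 had the largest differences of the 32.

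TAGLN, which encodes transgelin, an actin-binding protein of smooth muscle and of cells under tension, had the largest positive difference between the lines. It read 9.27 and 9.18 in Hep-3B-shLuc, 8.48 and 7.66 in Hep-3B-shKLHL23, 7.34 and 7.66 in Huh7-shLuc and 9.47 and 9.16 in Huh7-shKLHL23. The knockdown arrays lay below the controls in Hep-3B and above them in Huh7, and the ranks of the lines were exchanged. The rise in Huh7 was 1.81 (limma adjusted p = 0.0037), the Hep-3B difference was -1.15 (limma adjusted p = 0.070), and the difference between the lines was 2.96 ± 0.34 (SE, limma adjusted p = 0.0098). All 3 probe sets of TAGLN had this sign, but on the one used when _x_at and _s_at sets were dropped the difference was 0.43 and did not pass (limma adjusted p = 0.26).

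ACTA1, the skeletal muscle alpha-actin, changed in both lines. Its levels were 6.69 and 6.56 in Hep-3B-shLuc against 5.79 and 5.39 in Hep-3B-shKLHL23, and 4.54 and 4.63 in Huh7-shLuc against 5.61 and 5.72 in Huh7-shKLHL23. It fell by 1.04 in Hep-3B (limma adjusted p = 0.021) and rose by 1.08 in Huh7 (limma adjusted p = 0.0028), a difference of 2.11 ± 0.19 (limma adjusted p = 0.0084). A gap of -2.04 between the control groups (Huh7 minus Hep-3B) thus stood beside one of 0.07 between the knockdown groups.

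TPM4, a tropomyosin that lies along actin filaments, read 9.11 and 9.12 in Hep-3B-shLuc, 8.64 and 8.29 in Hep-3B-shKLHL23, 8.60 and 8.60 in Huh7-shLuc and 9.14 and 8.99 in Huh7-shKLHL23, a difference between the lines of 1.11 (limma adjusted p = 0.032). FILIP1L read 8.36 and 8.41, 8.06 and 7.76, 7.37 and 7.40, and 7.98 and 7.80 in the same groups, a difference of 0.98 (limma adjusted p = 0.041). Neither gene's groups overlapped within a line. That does not set them apart, since it held for 66 of the 67 opposite genes in Hep-3B and for 67 in Huh7. A rule that asks for a difference in both lines favours this, and the share over all genes is not given here.

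ACTA1, TPM4 and FILIP1L are shown together because the 250 bases before the annotated start of each hold a CArG box, the binding motif of serum response factor, which drives many actin and contractile genes. This motif was searched after the values were seen, and TPM4 and FILIP1L were singled out by it. The RefSeq promoter table (GRCh38.p14) held 15384 of the genes tested and 193 of the 249 called. A CArG box on either strand was found in 176 of the 15384 promoters (1.14%), in 3 of the 25 promoters of opposite genes higher in Huh7 (12%) and in 0 of the 27 of opposite genes lower in Huh7. Over all called genes it was found in 4 of 193 (2.07%), the fourth being RND3, 1 of 77 Huh7-limited falls, and in 0 of the 33 Huh7-limited rises. Below, capitals mark the CArG box, which is written on the gene's strand and starts 97 bases before the start of ACTA1, 173 before that of TPM4 and 60 before that of FILIP1L. The windows are chr1:229434095-229434344 on the minus strand, chr19:16067288-16067537 on the plus strand and chr3:99876174-99876423 on the minus strand.
ACTA1: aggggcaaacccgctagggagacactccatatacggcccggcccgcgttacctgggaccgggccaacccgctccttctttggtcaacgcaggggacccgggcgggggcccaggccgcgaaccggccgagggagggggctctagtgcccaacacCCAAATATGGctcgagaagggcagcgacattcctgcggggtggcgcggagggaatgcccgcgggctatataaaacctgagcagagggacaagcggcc
TPM4: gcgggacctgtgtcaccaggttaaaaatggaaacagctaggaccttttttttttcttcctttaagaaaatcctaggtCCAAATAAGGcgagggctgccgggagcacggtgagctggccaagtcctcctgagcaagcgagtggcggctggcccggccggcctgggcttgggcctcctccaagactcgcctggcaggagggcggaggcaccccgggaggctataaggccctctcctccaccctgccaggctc
FILIP1L: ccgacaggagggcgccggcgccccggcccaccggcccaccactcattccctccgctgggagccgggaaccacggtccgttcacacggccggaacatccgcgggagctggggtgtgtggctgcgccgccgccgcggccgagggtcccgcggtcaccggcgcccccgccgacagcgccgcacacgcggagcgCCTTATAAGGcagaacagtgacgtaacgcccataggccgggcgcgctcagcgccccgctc
A match is a string of letters, and binding was not measured.

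NDRG1, which is induced by hypoxia and other stresses, read 10.18 and 10.09 in Hep-3B-shLuc, 9.49 and 8.61 in Hep-3B-shKLHL23, 7.58 and 7.66 in Huh7-shLuc and 9.51 and 9.21 in Huh7-shKLHL23. The control levels of the lines were far apart and the knockdown levels lay side by side. It rose by 1.75 in Huh7 (limma adjusted p = 0.0042), its Hep-3B difference was -1.09 (limma adjusted p = 0.075), and the lines differed by 2.84 ± 0.34 (limma adjusted p = 0.012).

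NPPB, the precursor of B-type natriuretic peptide, read 4.63 and 4.74 in Hep-3B-shLuc, 4.08 and 3.95 in Hep-3B-shKLHL23, 5.18 and 5.46 in Huh7-shLuc and 6.30 and 6.12 in Huh7-shKLHL23. EDN1, the precursor of endothelin-1, read 5.94 and 5.88, 5.51 and 5.20, 5.55 and 5.65, and 6.31 and 6.58 in the same order. The cytokine gene LIF read 7.22 and 7.32, 6.74 and 6.68, 5.11 and 5.17, and 5.57 and 5.46. None of the 3 had overlapping groups within a line, which held for 66 of the 67 opposite genes in Hep-3B and for 67 in Huh7. The class rule favours such genes, and the share over all genes is not given here, so this is no trait of the 3. NPPB differed between the lines by 1.56 ± 0.17 (limma adjusted p = 0.0096), EDN1 by 1.40 ± 0.19 (limma adjusted p = 0.017) and LIF by 0.94 ± 0.13 (limma adjusted p = 0.020). LIF was called in both lines, as a fall of 0.56 and a rise of 0.38, whereas NPPB and EDN1 were called in Huh7 alone.

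GNG4, a gamma subunit of heterotrimeric G proteins, read 7.36 and 7.15 in Hep-3B-shLuc, 6.18 and 5.84 in Hep-3B-shKLHL23, 9.05 and 8.77 in Huh7-shLuc and 9.57 and 9.37 in Huh7-shKLHL23. It was called in both lines, with a fall of 1.25 in Hep-3B and a smaller rise of 0.56 in Huh7, where the control level was already the higher. The lines differed by 1.81 ± 0.21 (limma adjusted p = 0.011), and by 1.15 over the mean of GNG4's probe sets. PROM1, which encodes the stem cell antigen CD133, differed by 1.69 ± 0.31 (limma adjusted p = 0.045) and the RNA KLRK1-AS1 by 2.30 ± 0.42 (limma adjusted p = 0.045). In both, the Huh7 rise was called and the Hep-3B difference, -0.56 and -0.85, was not. The Kelch-like gene KLHL24 (difference 1.13) and NMRAL2P, a pseudogene counted with the NRF2 targets (0.81), had the same pattern.

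**Figure D2:**
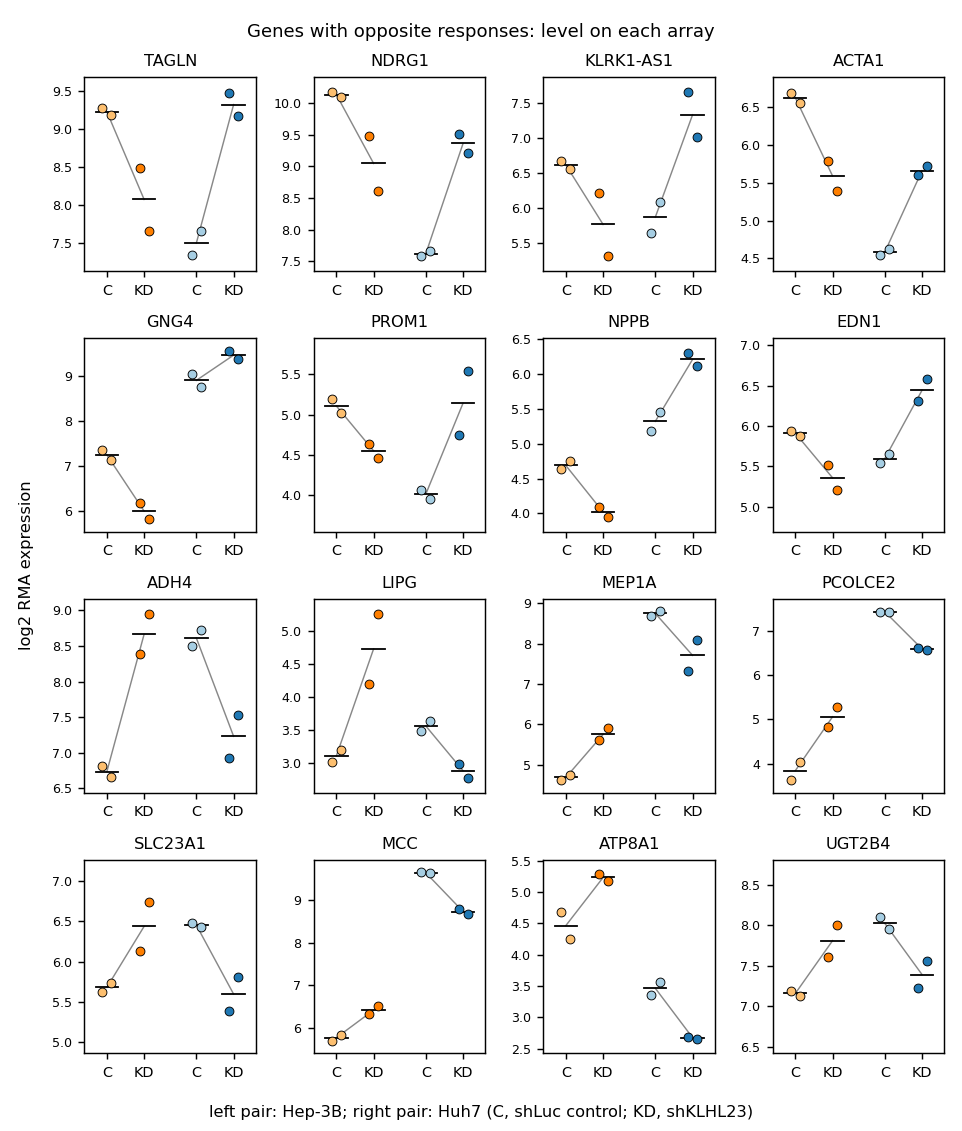
Log2 level on each array (points, y axis) and group mean (short horizontal lines, joined within a cell line) of 16 named genes with opposite responses, by group on the x axis. In each panel the knockdown points move one way from the control points in Hep-3B and the other way in Huh7, as for ACTA1, from 6.69 and 6.56 to 5.79 and 5.39 and from 4.54 and 4.63 to 5.61 and 5.72.

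The reverse orientation, up in Hep-3B and down in Huh7, held for 35 genes with median differences of 0.54 and -0.62. Of these, 9 were called as rises in Hep-3B and 29 as falls in Huh7, beside 106 and 1529 of all 19775 genes. Here too the class rule largely sets the counts. Enzymes and transporters of the liver and intestine were among them.

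ADH4, an alcohol dehydrogenase of the liver that also oxidises retinol, had the largest difference of all genes. It read 6.81 and 6.66 in Hep-3B-shLuc, 8.38 and 8.95 in Hep-3B-shKLHL23, 8.49 and 8.73 in Huh7-shLuc and 6.93 and 7.53 in Huh7-shKLHL23. The knockdown level of each line came to lie near the control level of the other. The rise in Hep-3B was 1.93 (limma adjusted p = 0.015), the fall in Huh7 was 1.38 (limma adjusted p = 0.0074), and the lines differed by -3.31 ± 0.32 (limma adjusted p = 0.0084), a ratio of 9.91-fold. Over the mean of ADH4's 4 probe sets the difference was smaller, -1.32 (limma adjusted p = 0.030). ADH6, of the same family, differed by -1.35 (limma adjusted p = 0.032), whereas ADH1B, described below with the Huh7-limited genes, differed in the other direction.

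PCOLCE2, an enhancer of procollagen processing, was also called in both lines. It read 3.64 and 4.04 in Hep-3B-shLuc, 4.83 and 5.28 in Hep-3B-shKLHL23, 7.42 and 7.43 in Huh7-shLuc and 6.60 and 6.57 in Huh7-shKLHL23. The gap between the lines narrowed from 3.58 in the controls to 1.53 after knockdown. MCC, a gene named for its mutation in colorectal cancers, moved in the same directions, at 5.69 and 5.83 against 6.32 and 6.50 in Hep-3B, and 9.66 and 9.64 against 8.79 and 8.68 in Huh7. PCOLCE2 differed between the lines by -2.06 ± 0.24 (limma adjusted p = 0.010) and MCC by -1.57 ± 0.15 (limma adjusted p = 0.0084). SETD7, a lysine methyltransferase, and SULF2, a heparan sulfate sulfatase, complete the set of 8 opposite genes called in both lines, with ACTA1, GNG4, LIF and ADH4. SETD7 read 5.30 and 5.21 against 6.03 and 6.34 in Hep-3B and 8.33 and 8.26 against 7.53 and 7.79 in Huh7. SULF2 read 8.36 and 8.29 against 8.83 and 9.09, and 8.68 and 8.70 against 8.27 and 8.28.

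Other members of this orientation were called in 1 line alone. MEP1A, the alpha subunit of the metalloprotease meprin, read 4.62 and 4.75 against 5.61 and 5.90 in Hep-3B and 8.70 and 8.80 against 7.34 and 8.09 in Huh7, a difference of -2.11 ± 0.30 (limma adjusted p = 0.024). SLC23A1, a vitamin C transporter, differed by -1.61 ± 0.28 (limma adjusted p = 0.041), and UGT2B4, which glucuronidates bile acids and steroids, by -1.29 ± 0.22 (limma adjusted p = 0.040). FZD7, a Wnt receptor, differed by -1.30 ± 0.23 (limma adjusted p = 0.041), and by -0.94 over the mean of its probe sets (limma adjusted p = 0.082). All 4 fell in Huh7, and their Hep-3B differences of 0.53 to 1.07 did not pass.

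LIPG, which encodes endothelial lipase, and NPC1L1, the intestinal and hepatic importer of cholesterol, were called as rises in Hep-3B, by 1.62 and 0.79, and their Huh7 differences of -0.68 and -0.33 did not pass. The difference between lines for NPC1L1, -1.12 (limma adjusted p = 0.030), was -0.43 over the mean of its probe sets (limma adjusted p = 0.20). LIPG was below the lower quartile, which lay between 3.08 and 3.12, on 2 Huh7 arrays and 1 Hep-3B array. ATP8A1, a phospholipid flippase, differed by -1.56 ± 0.20 (limma adjusted p = 0.016), but only 2 of its 3 probe sets had that sign, and over their mean it was -0.53 (limma adjusted p = 0.10). CD36, a fatty acid receptor, and ATP7B, the copper exporter of hepatocytes, are the 2 opposite genes called in neither line. CD36 read 3.62 and 3.88 against 4.28 and 4.70 in Hep-3B and 3.72 and 3.75 against 3.13 and 3.32 in Huh7 (difference -1.25, limma adjusted p = 0.041), and the difference for ATP7B was -0.93.

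Of the 21 named opposite genes, 0 stayed called without Huh7-shLuc replicate 1, 2 without Huh7-shLuc replicate 3, 4 without Hep-3B-shLuc replicate 1, 7 without Hep-3B-shLuc replicate 3, 9 without Hep-3B-shKLHL23 replicate 3, 14 without Huh7-shKLHL23 replicate 1 and 19 without Hep-3B-shKLHL23 replicate 1 or without Huh7-shKLHL23 replicate 3.

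Huh7-limited rises numbered 47, with a median of 1.05 in Huh7 and -0.02 in Hep-3B. All 47 passed in Huh7, where 13.5% of all genes did, and 0 in Hep-3B, where 0.693% did. The class rule largely sets these counts. The complement component C6, the nuclear receptor NR0B2, the alcohol dehydrogenase ADH1B and the secreted phosphoprotein SPP1 had the largest differences.

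C6, a component of the membrane attack complex, read 4.81 and 4.71 in Hep-3B-shLuc, 5.15 and 4.91 in Hep-3B-shKLHL23, 4.91 and 4.95 in Huh7-shLuc and 7.58 and 7.96 in Huh7-shKLHL23. Only the Huh7-shKLHL23 arrays stood apart from the others, at 7.14-fold over their controls. The control groups read alike (a difference of 0.17), and the responses differed by 2.57 ± 0.20 (limma adjusted p = 0.0038). C7, the next component of the complex, read 3.02 and 3.02, 3.26 and 3.28, 5.17 and 5.09, and 6.91 and 6.48 in the same order. It differed by 1.32 ± 0.19 (limma adjusted p = 0.025), with 2 Hep-3B arrays below the lower quartile and with its second probe set of the opposite sign (0.54 over the mean of both, limma adjusted p = 0.088). C4BPB, a chain of the inhibitor C4b-binding protein, differed by 1.198 (limma adjusted p = 0.0084).

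NR0B2 encodes SHP, a nuclear receptor without a DNA-binding domain that represses bile acid synthesis. It read 10.80 and 10.77 in Hep-3B-shLuc, 10.58 and 10.45 in Hep-3B-shKLHL23, 6.06 and 6.12 in Huh7-shLuc and 8.21 and 7.92 in Huh7-shKLHL23. Hep-3B was the higher line in every group, and the gap between the lines was -4.70 in the controls and -2.45 after knockdown. The Huh7 rise was 1.97 and the Hep-3B difference -0.27, so that the lines differed by 2.25 ± 0.16 (limma adjusted p = 0.0031). The Hep-3B knockdown arrays lay below their controls, just inside the 0.3 bound.

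SPP1 (osteopontin, a secreted phosphoprotein of the matrix) and DEFB1 (an antimicrobial beta-defensin) were likewise lower in Huh7 at the outset. SPP1 read 12.12 and 12.14 in Hep-3B-shLuc, 12.16 and 12.11 in Hep-3B-shKLHL23, 9.79 and 9.71 in Huh7-shLuc and 11.59 and 12.12 in Huh7-shKLHL23. DEFB1 read 7.13 and 7.05, 7.27 and 7.35, 5.72 and 5.93, and 8.21 and 7.86. After knockdown SPP1 in Huh7 reached the Hep-3B level and DEFB1 exceeded it. The differences between lines were 2.10 ± 0.22 (limma adjusted p = 0.0084) for SPP1 and 1.99 ± 0.19 (limma adjusted p = 0.0084) for DEFB1.

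Enzymes followed. ADH1B, a class I alcohol dehydrogenase, read 3.03 and 3.53 in Hep-3B-shLuc, 3.21 and 3.27 in Hep-3B-shKLHL23, 4.12 and 4.21 in Huh7-shLuc and 6.13 and 6.52 in Huh7-shKLHL23. Its difference of 2.20 ± 0.25 (limma adjusted p = 0.0098) was held by 3 of its 4 probe sets in sign, and on the probe set left when those with _x_at or _s_at names were dropped it was -0.18 (limma adjusted p = 0.70). Over the mean of ADH1B's probe sets it was 0.98 (limma adjusted p = 0.011). PAPSS2, which makes the sulfate donor PAPS, differed by 1.69 ± 0.19 (limma adjusted p = 0.0096). PCK1, the gatekeeper enzyme of gluconeogenesis, read 4.40 and 4.41, 4.22 and 4.05, 3.76 and 4.0, and 5.12 and 5.12, a difference of 1.51 ± 0.15 (limma adjusted p = 0.0084). PKM, which encodes pyruvate kinase, differed by 0.99 ± 0.15 (limma adjusted p = 0.030), and by 0.81 over the mean of its probe sets (limma adjusted p = 0.053).

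The intermediate filament genes VIM and KRT19 both rose in Huh7 from opposite starting positions. VIM (vimentin, of mesenchymal cells) read 4.70 and 4.88 in Hep-3B-shLuc, 4.71 and 5.18 in Hep-3B-shKLHL23, 9.0 and 8.94 in Huh7-shLuc and 10.69 and 10.40 in Huh7-shKLHL23. KRT19 (keratin 19, of bile duct cells) read 12.10 and 12.02, 12.14 and 12.34, 8.02 and 8.26, and 9.67 and 9.26. VIM was thus the higher in Huh7 and KRT19 the higher in Hep-3B throughout. The lines differed by 1.43 ± 0.23 for VIM (limma adjusted p = 0.036) and by 1.14 ± 0.21 for KRT19 (limma adjusted p = 0.048), and no probe set of KRT19 was called when probe sets were tested as features of their own. With probe sets averaged, the difference was 0.76 for VIM (limma adjusted p = 0.043) and 0.66 for KRT19 (limma adjusted p = 0.22). Of the other 4 cholangiocyte markers, CFTR, EPCAM, KRT7 and SOX9, none was called.

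SERPINA7, the plasma carrier of thyroxine, differed by 1.24 ± 0.16 (limma adjusted p = 0.016). The calcium-dependent membrane-binding protein ANXA4 differed by 0.92, the interferon-induced IFITM2 by 0.92 and the glutathione peroxidase GPX2 by 0.78. MYL9, a regulatory light chain of myosin, differed by 1.12 ± 0.19 (limma adjusted p = 0.040) on its brighter probe set and by -0.0083 (limma adjusted p = 0.99) on the other, with 0.55 for their mean (limma adjusted p = 0.20).

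Huh7-limited falls were the largest class, with 99 genes. Their median was -0.94 in Huh7 and 0.07 in Hep-3B. Again largely by the class rule, 99 passed in Huh7 and 0 in Hep-3B, beside 13.5% and 0.693% of all genes. An inhibitor of lipolysis, a Notch-ligand relative and the entry enzyme of the urea cycle were among the largest.

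G0S2, an inhibitor of the triglyceride lipase ATGL, read 4.80 and 4.99 in Hep-3B-shLuc, 4.70 and 4.67 in Hep-3B-shKLHL23, 9.48 and 9.48 in Huh7-shLuc and 6.11 and 7.19 in Huh7-shKLHL23. It fell by 2.83 in Huh7 (7.09-fold) towards the low level that Hep-3B had in either group. The 2 Huh7 knockdown arrays differed by more than 1 log2, and the difference between the lines, -2.62 ± 0.39, had a limma adjusted p of 0.028. VNN3P, a pseudogene of the vanin family, read 3.80 and 4.0, 3.81 and 3.94, 7.89 and 7.76, and 5.14 and 5.72 in the same order, a difference of -2.38 ± 0.25 (limma adjusted p = 0.0084).

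DLK1, a transmembrane protein of fetal liver related to the Notch ligands, had its higher control level in Hep-3B. It read 10.85 and 10.88 in Hep-3B-shLuc, 10.80 and 10.83 in Hep-3B-shKLHL23, 8.30 and 8.47 in Huh7-shLuc and 6.19 and 6.62 in Huh7-shKLHL23. The Hep-3B arrays spanned less than 0.1 while the Huh7 level fell by 1.98, so that the lines differed by -1.94 ± 0.20 (limma adjusted p = 0.0084). On the other probe set of DLK1, used when _x_at and _s_at sets were dropped, the difference was -0.07 (limma adjusted p = 0.89), and over the mean of both it was -1.004 (limma adjusted p = 0.010). LIN28B, another oncofetal gene, differed by -1.04 (limma adjusted p = 0.044).

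CPS1, which catalyses the first step of the urea cycle, read 7.66 and 7.58 in Hep-3B-shLuc, 7.75 and 7.84 in Hep-3B-shKLHL23, 8.43 and 8.53 in Huh7-shLuc and 6.75 and 7.13 in Huh7-shKLHL23. The line with more CPS1 among the controls had less of it after knockdown, with gaps of 0.87 and -0.86. The lines differed by -1.72 ± 0.18 (limma adjusted p = 0.0084). EFHD1, a mitochondrial calcium-binding protein, differed by -1.80 ± 0.25 (limma adjusted p = 0.021). CALCB, a calcitonin gene-related peptide, differed by -1.71 ± 0.17 (limma adjusted p = 0.0084), but all 4 Hep-3B arrays of CALCB were below the lower quartile, where a fall could not be measured. Over the class of 146, 12 genes had all 4 Hep-3B arrays there, against 13.8% of all genes.

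FAS and ADAM17 belong to cell surface signalling: FAS is a death receptor, and ADAM17 is a protease that sheds ligands from the membrane. ADAM17 read 8.59 and 8.60 in Hep-3B-shLuc, 8.51 and 8.34 in Hep-3B-shKLHL23, 8.56 and 8.56 in Huh7-shLuc and 7.59 and 7.54 in Huh7-shKLHL23. The control levels of ADAM17 coincided, and the difference was -0.82 ± 0.13 (limma adjusted p = 0.034). FAS differed by -0.996 ± 0.15 (limma adjusted p = 0.025), with 4 of its 5 probe sets of that sign and a value of 0.016 (limma adjusted p = 0.98) on the probe set used when _x_at and _s_at sets were dropped. Over the mean of its probe sets FAS was at -0.43 (limma adjusted p = 0.23). The iron importer SLC11A2 differed by -0.86 ± 0.15 (limma adjusted p = 0.041), with 3 of 5 probe sets of that sign. It was at -0.059 without _x_at and _s_at sets (limma adjusted p = 0.90) and at -0.29 over the mean of its probe sets (limma adjusted p = 0.25), and neither passed. FAS and SLC11A2 had Hep-3B differences of 0.299 and 0.292, just under the 0.3 bound, beside -0.70 and -0.57 in Huh7. These Hep-3B differences did not pass (limma adjusted p = 0.18 and 0.20).

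**Figure D3:**
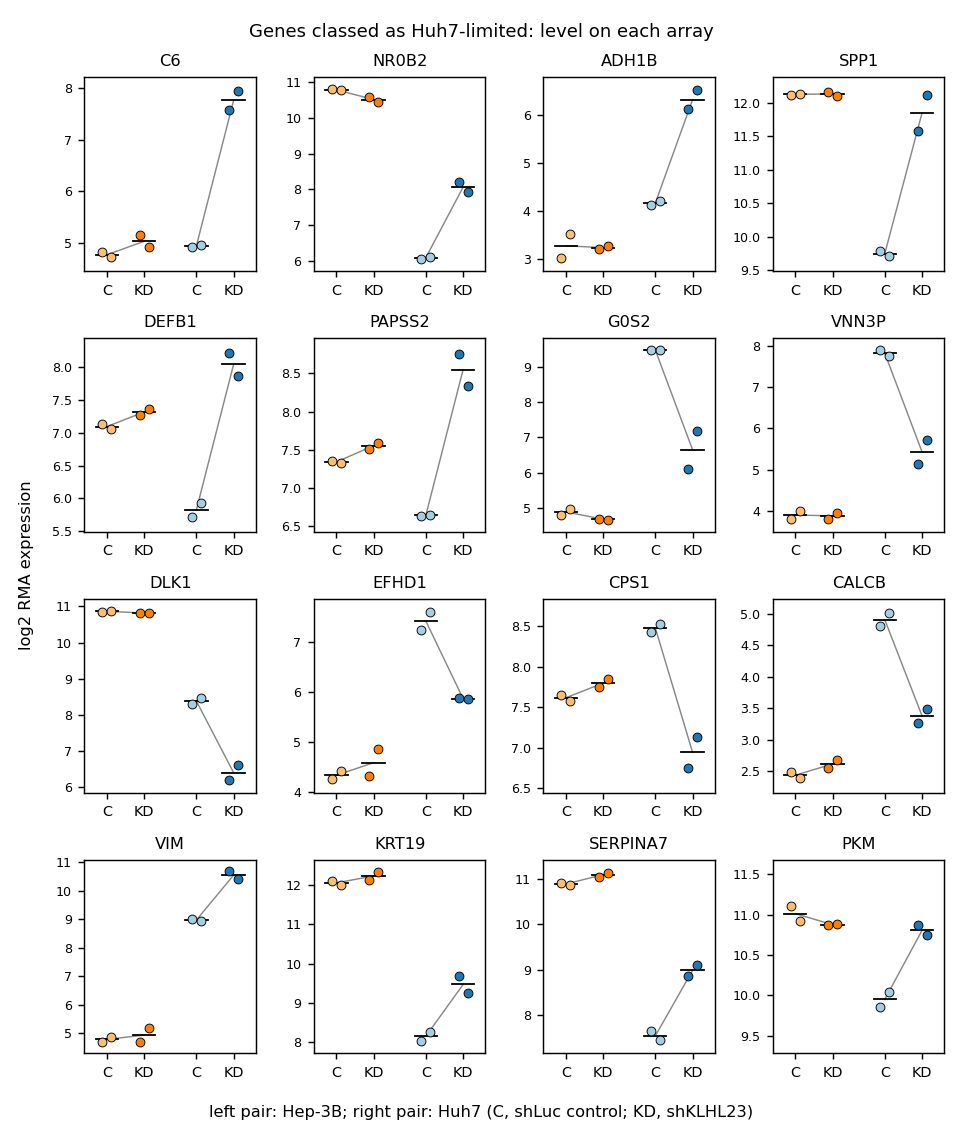
Log2 level on each array (points, y axis) and group mean (short horizontal lines, joined within a cell line) of named Huh7-limited genes, by group on the x axis. The Hep-3B groups lie close together and the Huh7 groups far apart, as for C6, from 4.91 and 4.95 to 7.58 and 7.96, and for DLK1, from 8.30 and 8.47 to 6.19 and 6.62.

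Of the 25 named Huh7-limited genes, 2 stayed called without Huh7-shLuc replicate 1, 4 without Huh7-shLuc replicate 3, 5 without Hep-3B-shLuc replicate 1, 11 without Hep-3B-shLuc replicate 3, 13 without Hep-3B-shKLHL23 replicate 3, 17 without Hep-3B-shKLHL23 replicate 1 or Huh7-shKLHL23 replicate 1 and 25 without Huh7-shKLHL23 replicate 3.

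Hep-3B-limited genes were 23: 19 with the higher response in Hep-3B and 4 with the lower. Of the 19, 17 passed as rises in Hep-3B, where 106 of all 19775 genes did, with a median difference of 1.33 over the 19. This count, too, is largely set by the class rule. Steroid and bile acid enzymes and sterol synthesis were represented, with an interferon-induced gene.

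CYP17A1, the steroid 17-alpha-hydroxylase, had the largest difference of the class. It read 4.48 and 4.09 in Hep-3B-shLuc, 6.45 and 7.42 in Hep-3B-shKLHL23, 4.30 and 3.93 in Huh7-shLuc and 3.94 and 3.81 in Huh7-shKLHL23. The controls of the lines overlapped, and Hep-3B knockdown arrays alone were raised, by 2.66 or 6.30-fold (limma adjusted p = 0.014). The lines differed by -2.90 ± 0.40 (limma adjusted p = 0.019), and by -1.52 over the mean of CYP17A1's 2 probe sets (limma adjusted p = 0.016).

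STAR, which delivers cholesterol to the mitochondrion for steroid synthesis, read 5.93 and 5.70 in Hep-3B-shLuc, 7.40 and 7.79 in Hep-3B-shKLHL23, 3.27 and 3.22 in Huh7-shLuc and 3.54 and 3.18 in Huh7-shKLHL23. CYP7A1, which catalyses the rate-limiting step from cholesterol to bile acids, read 2.63 and 2.55, 3.91 and 4.35, 1.91 and 2.16, and 1.96 and 1.82. Both rose in Hep-3B from levels above those of Huh7. All 4 Huh7 arrays of CYP7A1 were below the lower quartile, as were its Hep-3B controls. The differences between lines were -1.67 ± 0.23 for STAR (limma adjusted p = 0.019) and -1.69 ± 0.21 for CYP7A1 (limma adjusted p = 0.015).

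HMGCS1, an enzyme of the mevalonate pathway upstream of cholesterol, read 6.59 and 6.53 in Hep-3B-shLuc, 7.90 and 8.61 in Hep-3B-shKLHL23, 7.12 and 7.09 in Huh7-shLuc and 6.73 and 7.09 in Huh7-shKLHL23. It rose by 1.70 in Hep-3B and differed by -1.90 ± 0.30 between the lines (limma adjusted p = 0.033). IFI27, an interferon-induced gene, read 5.24 and 5.35, 6.80 and 7.59, 4.09 and 4.07, and 4.38 and 3.96, a difference of -1.81 ± 0.33 (limma adjusted p = 0.045). Both had Huh7 groups whose values overlapped or touched. BHMT, which remethylates homocysteine, differed by -1.40 ± 0.26 (limma adjusted p = 0.047), DKK4, a secreted Wnt antagonist, by -1.30 ± 0.24 (limma adjusted p = 0.047), and DNAJB9, a chaperone of the endoplasmic reticulum, by -0.95 ± 0.17 (limma adjusted p = 0.045). Without _x_at and _s_at sets DNAJB9 was at -0.84 (limma adjusted p = 0.051). CRYBG1 differed by -1.55 ± 0.27 (limma adjusted p = 0.041).

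The 4 Hep-3B-limited falls were SULT1C4, LOC100505915, C5AR1 and AGPAT2. SULT1C4, a sulfotransferase, read 5.16 and 5.49 in Hep-3B-shLuc, 4.20 and 3.70 in Hep-3B-shKLHL23, 2.84 and 2.82 in Huh7-shLuc and 2.88 and 3.11 in Huh7-shKLHL23. Its fall of 1.38 was measured in the line that had signal, since 3 of the 4 Huh7 arrays were below the lower quartile. For the complement receptor gene C5AR1, all 4 Huh7 arrays were below it. C5AR1 read 4.02 and 4.12 in Hep-3B-shLuc and 3.10 and 2.73 in Hep-3B-shKLHL23. These 2 knockdown arrays were below the lower quartile as well, so the fall of C5AR1 may be understated. SULT1C4 differed by 1.54 ± 0.25 (limma adjusted p = 0.035), LOC100505915 by 1.30 ± 0.24 (limma adjusted p = 0.045), C5AR1 by 1.15 ± 0.18 (limma adjusted p = 0.034) and AGPAT2, an acyltransferase of triglyceride synthesis, by 0.82 ± 0.13 (limma adjusted p = 0.032). AGPAT2 read 8.16 and 8.21 in Huh7-shLuc and 8.50 and 8.45 in Huh7-shKLHL23, a difference of 0.29 just under the bound.

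**Figure D4:**
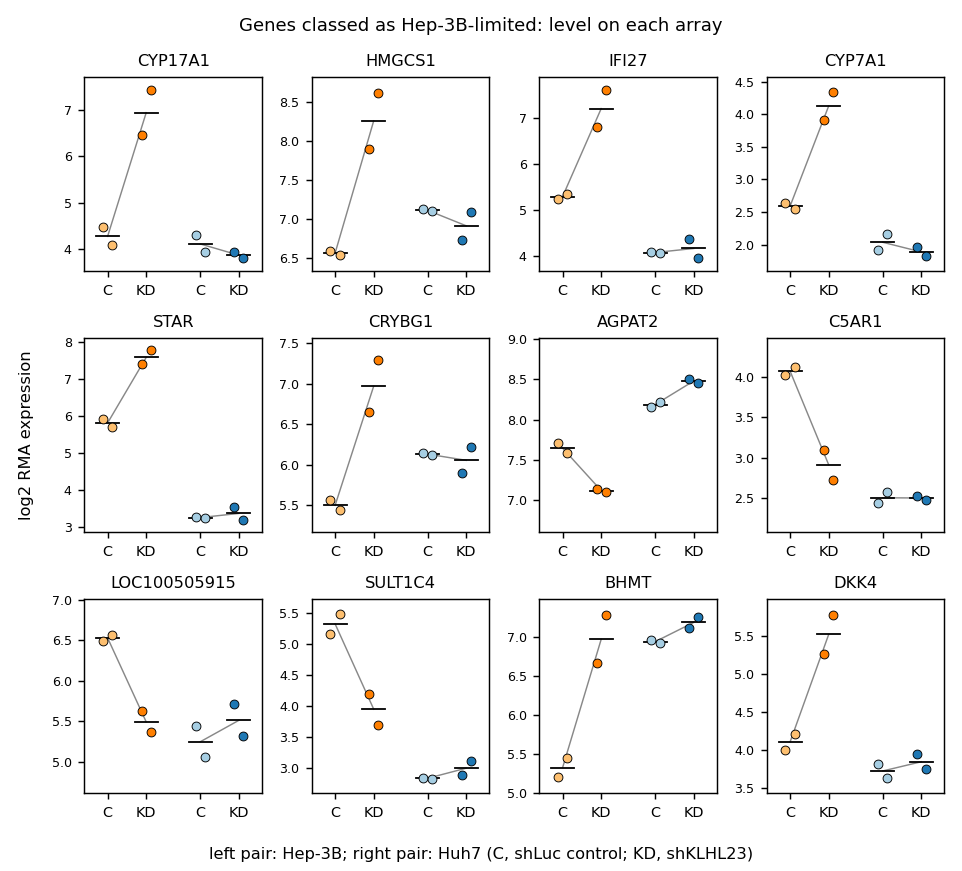
Log2 level on each array (points, y axis) and group mean (short horizontal lines, joined within a cell line) of named Hep-3B-limited genes, by group on the x axis. The Hep-3B groups lie apart and the Huh7 groups close together, as for CYP17A1, at 4.48 and 4.09 against 6.45 and 7.42 in Hep-3B and at 4.30 and 3.93 against 3.94 and 3.81 in Huh7.

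Of the 13 named Hep-3B-limited genes, 0 stayed called without Hep-3B-shLuc replicate 1, Hep-3B-shLuc replicate 3, Huh7-shLuc replicate 1 or Huh7-shLuc replicate 3, 2 without Huh7-shKLHL23 replicate 1, 3 without Hep-3B-shKLHL23 replicate 3, 8 without Huh7-shKLHL23 replicate 3 and 12 without Hep-3B-shKLHL23 replicate 1.

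The 13 genes that moved in the same direction did so mostly with the larger change in Huh7. Of the 13, 12 were called in Huh7 and 2 in Hep-3B, beside 13.5% and 0.693% of all genes. MMP7 alone was called in both lines, and for the others the shared direction rests on an estimate that did not pass in 1 line. The class rule largely sets these counts as well. CPT1A, the carnitine palmitoyltransferase that admits long-chain fatty acids to the mitochondrion, had the smallest adjusted p of all genes. It read 8.95 and 8.83 in Hep-3B-shLuc, 9.17 and 9.41 in Hep-3B-shKLHL23, 5.40 and 5.40 in Huh7-shLuc and 8.25 and 8.32 in Huh7-shKLHL23. Huh7 rose by 2.88 (7.38-fold) from a low control level to one still below both Hep-3B groups, and the Hep-3B difference of 0.39 did not pass. The lines differed by 2.49 ± 0.15 (limma adjusted p = 0.0015), and 3 of the gene's 4 probe sets had that sign, all 3 of them called. Over the mean of its probe sets CPT1A differed by 1.647 (limma adjusted p = 0.0043).

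MMP7, the matrix metalloprotease matrilysin, was called as a rise in both lines. It read 4.42 and 4.45 in Hep-3B-shLuc, 5.34 and 5.86 in Hep-3B-shKLHL23, 5.65 and 5.54 in Huh7-shLuc and 9.01 and 9.21 in Huh7-shKLHL23. The rise was 1.17 in Hep-3B (limma adjusted p = 0.026) and 3.52 in Huh7 (limma adjusted p = 7.26e-05), or 2.25-fold and 11.5-fold, and the difference was 2.35 ± 0.23 (limma adjusted p = 0.0084). The 250 bases before its start, chr11:102530748-102530997 on the minus strand (RefSeq, GRCh38.p14), are shown because MMP7 is a known target of AP-1. Capitals mark an AP-1 site (TGANTCA, either strand), which starts 67 bases before the start and which 5.03% of the 15384 promoters hold.
MMP7: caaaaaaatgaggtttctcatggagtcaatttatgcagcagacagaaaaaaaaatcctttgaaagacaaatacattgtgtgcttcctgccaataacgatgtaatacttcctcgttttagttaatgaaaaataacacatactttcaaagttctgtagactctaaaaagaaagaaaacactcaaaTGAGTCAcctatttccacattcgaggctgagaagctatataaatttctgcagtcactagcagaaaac
Of the 193 promoters of called genes, 9 (4.66%) hold this motif.

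SLC40A1, the iron exporter ferroportin, read 9.22 and 9.25 in Hep-3B-shLuc, 9.79 and 10.02 in Hep-3B-shKLHL23, 7.18 and 6.97 in Huh7-shLuc and 8.95 and 8.73 in Huh7-shKLHL23, a difference of 1.09 ± 0.18 (limma adjusted p = 0.035), or of 0.62 over the mean of its probe sets (limma adjusted p = 0.21). PLA1A, a phospholipase, differed by 1.61 ± 0.30 (limma adjusted p = 0.048), with 3 Hep-3B arrays below the lower quartile. In the other direction, the homeobox gene DLX2 read 7.02 and 6.95, 6.71 and 6.63, 6.0 and 5.78, and 4.14 and 3.71, a difference of -1.65 ± 0.20 (limma adjusted p = 0.015), or of -0.93 over the mean of its probe sets (limma adjusted p = 0.033). The acetyltransferase KAT2B differed by -1.38 ± 0.18 (limma adjusted p = 0.018). Both fell in Huh7, by 1.96 and 1.69, beside Hep-3B differences of -0.31 that did not pass.

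AKNA, KLHL5 and TNFRSF10B, the last a receptor of the death ligand TRAIL, differed by -1.24, -1.18 and -0.87. Their probe sets disagreed, with 1 of 2, 3 of 5 and 1 of 4 respectively of the sign given. Over the mean of the probe sets none of the 3 passed, at -0.49 for AKNA, -0.26 for KLHL5 and -0.13 for TNFRSF10B (limma adjusted p = 0.24, 0.38 and 0.76). GPD1, the cytosolic glycerol-3-phosphate dehydrogenase, was the exception of the class, with the larger difference in Hep-3B. It was called as a rise there, and its Huh7 difference of 0.33 did not pass (limma adjusted p = 0.18). It read 5.83 and 5.80 against 7.28 and 7.67 in Hep-3B and 5.65 and 5.53 against 6.05 and 5.79 in Huh7, a difference of -1.33 ± 0.20 (limma adjusted p = 0.031), or of -0.55 over the mean of its probe sets (limma adjusted p = 0.20).

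Of the 10 named genes of the class, 1 stayed called without Huh7-shLuc replicate 1 or Huh7-shLuc replicate 3, 2 without Hep-3B-shLuc replicate 1 or Hep-3B-shLuc replicate 3, 5 without Huh7-shKLHL23 replicate 1, 7 without Hep-3B-shKLHL23 replicate 1 or Hep-3B-shKLHL23 replicate 3 and 8 without Huh7-shKLHL23 replicate 3.

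Gene lists were read by their counts and medians. Over all genes the median difference between lines was -0.03, with 8991 above 0 and 10784 below, and 1.26% were called. The lists held 1029 measured genes, 62 of them called. Within the lines, 1137 of all genes rose and 1529 fell in Huh7, whereas 106 rose and 31 fell in Hep-3B, and a list's counts in the 2 lines are not set against each other.

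The list of sterol synthesis and uptake had the lowest median, -0.78 over 20 genes, with 18 of 20 below 0. Its medians were 0.86 in Hep-3B and 0.09 in Huh7. In Hep-3B 7 of the 20 genes rose (HMGCS1, IDI1, SQLE, LSS, MSMO1, SC5D and NPC1L1), beside 106 of all 19775 genes. In Huh7 0 of the 20 rose, beside 1137 of all 19775 genes. In either direction, 0.693% of all genes were called in Hep-3B and 13.5% in Huh7. Only HMGCS1 and NPC1L1 passed for the difference between the lines. MSMO1, a sterol methyl oxidase, read 9.15 and 9.19 in Hep-3B-shLuc, 10.58 and 11.18 in Hep-3B-shKLHL23, 9.12 and 9.02 in Huh7-shLuc and 9.36 and 9.71 in Huh7-shKLHL23. IDI1, an isomerase of the mevalonate pathway, read 8.32 and 8.42, 9.73 and 10.33, 8.90 and 8.98, and 9.18 and 9.65. The Huh7 knockdown arrays of both lay above their controls too, by less, and the differences between lines, -1.24 for MSMO1 (limma adjusted p = 0.072) and -1.18 for IDI1 (limma adjusted p = 0.10), did not pass. Hep-3B-shKLHL23 replicate 3 was the higher knockdown array in each of these examples.

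Hypoxia-inducible factor targets and glycolysis had the highest median, 0.57 over 36 genes, with 34 of 36 above 0. Here the medians were -0.48 in Hep-3B and 0.11 in Huh7. NDRG1, PKM and P4HA2, a collagen prolyl hydroxylase, passed as higher in Huh7 and 0 as lower. In Huh7 6 of the 36 rose and 1 fell, beside 13.5% of all genes called there, and in Hep-3B 0 were called, beside 0.693%. The mitophagy receptor BNIP3L read 9.81 and 9.85 in Hep-3B-shLuc, 9.34 and 8.66 in Hep-3B-shKLHL23, 8.50 and 8.42 in Huh7-shLuc and 8.82 and 8.93 in Huh7-shKLHL23 (difference 1.25, limma adjusted p = 0.071). VEGFA, the angiogenic growth factor, read 10.97 and 11.06, 10.44 and 8.78, 10.91 and 10.89, and 9.39 and 9.70, so that both lines were lower after knockdown (difference 0.05, limma adjusted p = 0.98). The list thus held members that parted between the lines and members that did not.

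The actin cytoskeleton and focal adhesion list had 4 higher genes (TAGLN, TPM4, MYL9 and TMSB4X) and 2 lower (CFL2 and FERMT2) of 39, with a median of 0.28. In Huh7 14 of its 39 genes rose and 1 fell, beside 1137 rises and 1529 falls among all 19775 genes (13.5% in either direction). In Hep-3B 1 rose and 0 fell, beside 106 rises and 31 falls among all genes (0.693% in either direction). TMSB4X, which encodes the actin-sequestering thymosin beta-4, read 8.60 and 8.51, 8.55 and 8.69, 10.48 and 10.38, and 11.51 and 11.52 in the order Hep-3B-shLuc, Hep-3B-shKLHL23, Huh7-shLuc and Huh7-shKLHL23. FERMT2, an integrin activator of focal adhesions, read 9.68 and 9.77, 9.63 and 9.65, 10.23 and 10.18, and 9.05 and 9.06. The Hep-3B groups of both genes overlapped or nearly so, and the Huh7 groups were far apart in opposite directions.

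Wnt targets and feedback genes were lower in 4 of 26 cases and higher in 0, with a median of -0.20. FZD7, NKD1 and DKK1 fell in Huh7, and DKK4 rose in Hep-3B. NKD1, an intracellular Wnt antagonist, read 8.95 and 8.91, 8.94 and 8.93, 9.87 and 9.84, and 8.75 and 8.93, a difference of -1.03 (limma adjusted p = 0.016). DKK1, a secreted antagonist, differed by -0.79 (limma adjusted p = 0.042). In Huh7 11 of the 26 fell and 0 rose. Of all 19775 genes, 1529 fell and 1137 rose there, 13.5% in either direction.

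Urea cycle and amino acid breakdown genes were lower in 5 of 36 cases and higher in 0. CPS1, AMDHD1 (of histidine breakdown) and SLC25A13 (the aspartate-glutamate carrier citrin) fell in Huh7, whereas BHMT and CDO1 (of cysteine oxidation) rose in Hep-3B. AMDHD1 read 5.62 and 5.73, 5.89 and 5.86, 7.78 and 7.72, and 6.86 and 6.72, a difference of -1.16 (limma adjusted p = 0.0098). The same sign of the difference therefore came from falls in 1 line and rises in the other.

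Steroid and bile acid genes were lower in 5 of 33 cases (CYP17A1, CYP7A1, STAR, FGF19 and SLC51B) and higher in 1, NR0B2. FGF19, the enterohepatic hormone that represses CYP7A1, read 3.82 and 3.55, 3.94 and 3.72, 4.99 and 5.09, and 4.05 and 4.12, and SLC51B, a subunit of the bile acid exporter, read 6.42 and 6.35, 6.35 and 6.56, 8.33 and 8.41, and 7.52 and 7.45. Both fell in Huh7 and not in Hep-3B, with differences of -1.11 (limma adjusted p = 0.031) and -0.95 (limma adjusted p = 0.029). Drug metabolism had 2 higher (ADH1B and SULT1C4) and 4 lower (ADH4, ADH6, CYP4F2 and UGT2B4) of 45, and complement and coagulation 3 higher (C6, C7 and C4BPB) and 0 lower of 40.

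Other lists had few or no calls for the difference. The integrated stress response list had 0 called of 38, with medians of -0.77 in Hep-3B and -0.87 in Huh7. In Huh7 28 of its genes fell and 0 rose. Of all 19775 genes, 1529 fell and 1137 rose there, 13.5% in either direction. Cell cycle (52 genes), immediate early genes (36), the TGF-beta, activin and BMP pathway (34), cytosolic chaperones (19), metallothioneins (17) and histones (13) also had 0 called by limma. At an unadjusted p under 0.05, which 14.7% of all genes had, these lists held 5 genes for the stress response, 6 for the cell cycle, 7 for immediate early genes, 9 for the TGF-beta list, 3 for chaperones, 4 for metallothioneins and 1 for histones. A list without calls is not shown to respond alike in the lines.

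**Figure D5:**
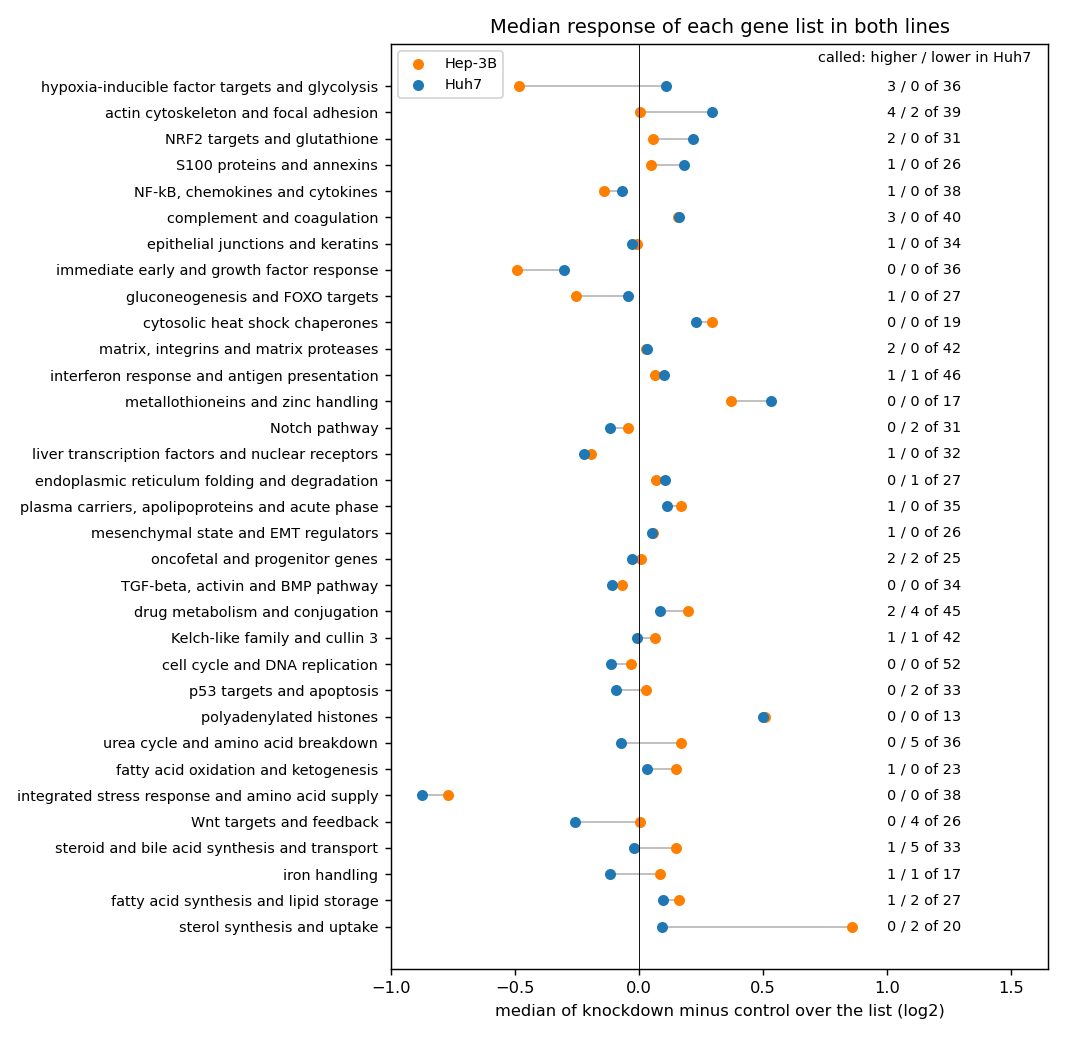
Median over each gene list (y axis) of knockdown minus control in log2 (x axis), with a point for Hep-3B and a point for Huh7, and at the right the number of members called higher and lower in Huh7 of those measured. Sterol synthesis has medians of 0.86 in Hep-3B and 0.09 in Huh7, and hypoxia-inducible factor targets and glycolysis of -0.48 and 0.11, while the points of the integrated stress response, -0.77 and -0.87, lie close together.

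Of CDH1, CDH2, VIM, ZEB1 and SNAI2, followed for epithelial and mesenchymal state, VIM alone passed in the brightest probe set of each gene. In the list of epithelial junctions and keratins, KRT19 alone passed, with the limits given above. CDH1 (E-cadherin) read 8.99 and 8.92 in Hep-3B-shLuc, 9.22 and 9.46 in Hep-3B-shKLHL23, 8.69 and 8.73 in Huh7-shLuc and 9.87 and 9.57 in Huh7-shKLHL23, and CDH2 (N-cadherin) read 6.74 and 6.70, 6.90 and 7.32, 5.80 and 6.0, and 6.64 and 6.56. Knockdown arrays of both cadherins lay above their controls in both lines. The differences between lines were 0.62 ± 0.18 for CDH1 (limma adjusted p = 0.15; 1.01 and 0.023 over the mean of its probe sets, which passed) and 0.31 ± 0.20 for CDH2 (limma adjusted p = 0.52). The transcription factor ZEB1 differed by -0.64 ± 0.29 (limma adjusted p = 0.36, and -0.22 over the mean of its probe sets), and SNAI2 was below the lower quartile on all 8 arrays.

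Just inside the threshold stood MRAS (-0.92, limma adjusted p = 0.0495), RBP2 (1.29, 0.0495) and N4BP2L1 (0.76, 0.0497). Just outside it stood CPB2 (-0.90, 0.0511), CYP4F3 (-0.89, 0.0511) and FZD1 (-0.67, 0.0524). Some large differences did not pass. CP, which encodes ceruloplasmin, had the largest of them, 2.26 ± 0.73 (limma adjusted p = 0.19). It read 6.86 and 6.80 in Hep-3B-shLuc, 5.87 and 4.39 in Hep-3B-shKLHL23, 7.96 and 7.97 in Huh7-shLuc and 7.78 and 9.27 in Huh7-shKLHL23, with the knockdown replicates more than 1 log2 apart in both lines.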

How the data were processed

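The deposited values are log2 expression values of 54675 probe sets, which the authors made with RMA. The submitters' processing notes name Affymetrix Expression Console 1.2 for this step. RMA equalises the arrays' intensity distributions and shrinks differences of dim probe sets, so a change in total RNA per cell is not seen. Array medians lay between 4.563 and 4.597. Further settings are not given in the sources used here.

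The platform annotation paired 41097 probe sets with 1 gene symbol and 1801 with several, and 11777 were unnamed there. Symbols of 41043 were looked up by gene identifier in RefSeq (GRCh38.p14), which changed 0. Each of 19775 genes was represented by its brightest probe set with a single symbol, with no filter on level. Group means were fitted to the 8 arrays with limma 3.58.1 (lmFit and eBayes) in R 4.3.3, with 4 residual and 4.59 prior degrees of freedom, and Benjamini-Hochberg adjustment ran over all genes, with a call at 0.05. Values are log2, and ± gives the moderated SE. The script was tested on simulated data.

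Named were, among called genes, up to 8 opposite genes per orientation with the largest smaller response, up to 6 line-limited genes per direction with the largest difference and arrays of the responding line not overlapping, up to 4 same-direction genes per sign, and up to 2 called members per list, with KLHL23, CDH1, CDH2, VIM, ZEB1 and SNAI2 always. Other genes were chosen after their values were seen. The comparison, the 38 gene lists and their members were chosen with earlier results of these data known. Comparisons within lines and between control groups share arrays with the difference between lines, so their values are given only side by side. Alternatives covered normalization, level filters, probe set choice, the variance model, array weights, a replicate block, the response bound and leaving out each array.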

Additional observations from a re-analysis of the deposited data

Results flagged for a closer look

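The effect of knockdown differed between Huh7 and Hep-3B for 249 genes by limma's test of the difference itself, and the 69 called genes named in the text are given here with the size of that difference (log2, Huh7 response minus Hep-3B response). Groups of 2 arrays allow no test for a single array that stands apart.

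With opposite responses, the Huh7 response was the higher for TAGLN (2.96), NDRG1 (2.84), KLRK1-AS1 (2.30), ACTA1 (2.11), GNG4 (1.81), PROM1 (1.69), NPPB (1.56), EDN1 (1.40), KLHL24 (1.13), LIF (0.94) and NMRAL2P (0.81). It was the lower for ADH4 (-3.31), LIPG (-2.29), MEP1A (-2.11), PCOLCE2 (-2.06), SLC23A1 (-1.61), MCC (-1.57), ATP8A1 (-1.56), FZD7 (-1.30), UGT2B4 (-1.29) and NPC1L1 (-1.12).

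Among genes that responded in Huh7 alone, the difference was positive for C6 (2.57), NR0B2 (2.25), ADH1B (2.20), SPP1 (2.10), DEFB1 (1.99), PAPSS2 (1.69), PCK1 (1.51), VIM (1.43), C7 (1.32), SERPINA7 (1.24), KRT19 (1.14), MYL9 (1.12), PKM (0.99), ANXA4 (0.92), IFITM2 (0.92) and GPX2 (0.78). It was negative for G0S2 (-2.62), VNN3P (-2.38), DLK1 (-1.94), EFHD1 (-1.80), CPS1 (-1.72), CALCB (-1.71), FAS (-0.996), SLC11A2 (-0.86) and ADAM17 (-0.82). In Hep-3B, FAS and SLC11A2 were at 0.299 and 0.292, just under the response bound and opposite in sign to Huh7.

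Among genes that responded in Hep-3B alone, the difference was positive for SULT1C4 (1.54), LOC100505915 (1.30), C5AR1 (1.15) and AGPAT2 (0.82). It was negative for CYP17A1 (-2.90), HMGCS1 (-1.90), IFI27 (-1.81), CYP7A1 (-1.69), STAR (-1.67), CRYBG1 (-1.55), BHMT (-1.40), DKK4 (-1.30) and DNAJB9 (-0.95).

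Among genes that responded in the same direction, the difference was positive for CPT1A (2.49), MMP7 (2.35), PLA1A (1.61) and SLC40A1 (1.09). It was negative for DLX2 (-1.65), KAT2B (-1.38), GPD1 (-1.33), AKNA (-1.24), KLHL5 (-1.18) and TNFRSF10B (-0.87).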

How the results depend on the processing

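The count of 249 genes was within 1.5 times under further quantile normalization, median centring, the lower-quartile filter, averaging all probe sets of a gene, the choice without _x_at and _s_at probe sets, and array weights. It was 436 among genes above the median level only, 560 with an intensity trend and a robust prior, 510 over all probe sets and 143 with a replicate block. For the classes in the order opposite, Huh7-limited, Hep-3B-limited and same direction, the intensity trend gave 111, 342, 74 and 25 genes, with 119 called genes in the lists, and the replicate block gave 44, 75 and 14 for the first 3. The median-level filter gave 285, 47 and 21 for the last 3, and kept 45 of the 69 named genes in the test, all called. The mean of probe sets left 5 genes in the same direction. It ended the call of 14 of the 69 named genes, brought ADH4 from -3.31 to -1.32 and raised CDH1 from 0.62 to 1.01, where it passed (limma adjusted p = 0.0227). With a response of at least 0.2, 98 genes were opposite and 106 Huh7-limited, in place of 67 and 146. At that bound 13 were Hep-3B-limited and 32 in the same direction. With 0.5, 24 were opposite, 175 Huh7-limited, 34 Hep-3B-limited, 4 in the same direction and 12 small in both.

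Leaving out each array in turn gave 4 to 521 called genes, with 0 to 92 opposite, 3 to 378 Huh7-limited, 0 to 91 Hep-3B-limited and 1 to 35 in the same direction. It left 3 to 60 of the named genes and 3 to 99 list genes called, and KLHL23 at -1.44 to -0.377. Where an array was left out, the lone array of its group is assumed to vary like the other groups. Without _x_at and _s_at probe sets the sign turned for ADH1B (-0.18, limma adjusted p = 0.702), FAS (0.016, 0.984) and MYL9 (-0.0083, 0.993), since another probe set then stood for the gene. Under the same setting DLK1 (-0.07, 0.891), SLC11A2 (-0.059, 0.899), TAGLN (0.43, 0.256) and DNAJB9 (-0.84, 0.0509) were no longer called, and 51 of the 58 named genes it could test kept their call.

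The correlation of replicate 1 minus replicate 3 between groups ran from -0.091 to 0.089 over all genes. These values gave no sign that the replicate numbers pair the arrays, but they cannot exclude it, and the labels do not say. The block moved the count to 143 genes, 59 higher and 84 lower, of which 137 were among the 249, and 58 of the 69 named genes stayed called. The number of arrays limits the precision, and differences of dim genes are understated.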
